A study of Mus musculus with 6 samples.

Results

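The genes followed here encode proteins that fold, place and protect the contractile machinery of muscle. They are 10 mouse genes for sarcomere assembly factors and muscle small heat shock proteins, Unc45b, Smyd1, Klhl40, Klhl41, Lmod2, Lmod3, Cryab, Hspb2, Hspb3 and Hspb8. They were chosen by name, as every non-control probe of the array whose RefSeq accession belongs to one of these genes, and their measured values played no part in that rule. This gave 12 probes of the 39429 non-control probes on the array, of which 27234 could be named, for 20659 genes. Smyd1 and Cryab have 2 probes each and every other member has 1.

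C2C12, an established line of mouse myoblasts, was the source of the RNA, which was measured on 6 single-colour Agilent mouse arrays. The siRNA-MEG3 group (3 arrays) was transfected with siRNA oligos against the long non-coding RNA Meg3, and the siRNA-NC group (3 arrays) with negative control oligos; the comparison asks what a knockdown of Meg3 does to the transcriptome. Per the labels, all cells grew in medium with 10% fetal bovine serum, transfection took place at 70 to 80% confluence, and the 3 arrays of each group are biological replicates of this line. A dose is stated for the Meg3 siRNA, as "20 um", with the unit as printed in the labels. The sources used here do not say how long after transfection the RNA was taken.

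A sarcomere is built from thick myosin filaments and thin actin filaments, and its large proteins need help to fold and to find their place. Unc45b and Smyd1 act with Hsp90 on muscle myosin, the Kelch proteins Klhl40 and Klhl41 are relatives of Cullin-3 ubiquitin ligase adaptors that keep thin filament proteins stable, and leiomodins start and lengthen actin filaments at their pointed ends. Small heat shock proteins hold unfolded proteins so that they do not aggregate, and several are abundant in muscle. C2C12 myoblasts switch on much of this equipment when they leave the cell cycle and fuse into myotubes.

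Promoter sequences are shown for Klhl41, Lmod2 and Hspb3, the members that passed the test and have an entry in the promoter table used here, and for Smyd1, whose probes had negative fold changes. The 250 bases before each RefSeq start are printed 5′ to 3′ on the strand of the gene, from the GRCm38.p6 build. Capitals mark the E-box CANNTG, which myogenic bHLH factors bind, and a MEF2-like motif, CTANNNNTAG. The windows lie at chr2:69669870-69670119 on the plus strand for Klhl41, chr6:24597521-24597770 on the plus strand for Lmod2, chr13:113663677-113663926 on the minus strand for Hspb3 and chr6:71262282-71262531 on the minus strand for Smyd1.
Klhl41: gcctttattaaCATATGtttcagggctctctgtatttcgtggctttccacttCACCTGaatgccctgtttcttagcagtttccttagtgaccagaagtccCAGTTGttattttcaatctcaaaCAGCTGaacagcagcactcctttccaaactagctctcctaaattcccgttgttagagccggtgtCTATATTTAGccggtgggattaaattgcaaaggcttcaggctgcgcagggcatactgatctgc
Lmod2: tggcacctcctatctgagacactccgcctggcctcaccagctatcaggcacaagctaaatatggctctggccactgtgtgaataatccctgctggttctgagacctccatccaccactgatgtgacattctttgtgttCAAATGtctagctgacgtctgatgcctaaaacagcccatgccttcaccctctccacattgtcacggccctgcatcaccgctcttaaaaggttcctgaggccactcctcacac
Hspb3: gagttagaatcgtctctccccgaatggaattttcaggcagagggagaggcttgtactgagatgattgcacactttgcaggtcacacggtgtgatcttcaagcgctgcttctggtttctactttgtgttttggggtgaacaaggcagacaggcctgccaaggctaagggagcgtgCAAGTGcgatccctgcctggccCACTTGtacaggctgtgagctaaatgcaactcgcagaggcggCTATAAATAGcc
Smyd1: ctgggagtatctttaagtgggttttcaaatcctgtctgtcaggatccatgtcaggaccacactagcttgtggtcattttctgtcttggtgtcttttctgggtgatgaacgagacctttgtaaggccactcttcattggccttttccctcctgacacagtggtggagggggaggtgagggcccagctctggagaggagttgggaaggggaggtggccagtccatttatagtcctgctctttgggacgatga

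Motifs were counted on both strands in windows of 300 bases, from 250 before the start to 50 after it, which the table holds for 7 of the 10 members (not Cryab, Hspb2 and Lmod3). Klhl40 and Klhl41 had 4 E-boxes each, Unc45b, Lmod2 and Hspb3 had 2 each, Hspb8 had 1 and Smyd1 had 0; the E-box CAGCTG of Lmod2 begins at the start itself, after the printed bases. At least 1 E-box was thus present in 6 of 7 members, against 72.3% of all 32817 promoters, and 17.6% of all promoters had 3 or more. The E-box with the letters CAGCTG was present in Klhl40, Klhl41 and Lmod2, which is 3 of 7 members, against 16.3% of all promoters. The MEF2-like motif was found in Klhl41, its first base 63 bases before the start, and in Hspb3, 12 bases before it, which is 2 of 7 members against 3.69% of all promoters. The match in Hspb3 overlaps one to the TATA box letters TATAAA on the strand of the gene. Smyd1 has these letters only on the opposite strand, 28 bases before its start, so its printed bases read TTTATA there. Counted on both strands, this is 2 of 7 members against 13.6% of all promoters. The heat shock element letters GAANNTTC were found in Hspb3 and Hspb8 (2 of 7, 7.86% of all), and the MCAT letters CATTCC in 0 of 7 members (14.7% of all). A match is a run of letters and not a measured binding site.

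Several features of the arrays bear on every value that follows. In 230 probes printed 10 times, the deviations of single spots from their probe mean were nearly the same on siRNA-MEG3 arrays 1 and 3 (r = 0.98), while the other 14 pairs of arrays gave r from -0.15 to 0.54. siRNA-NC arrays 1 and 3 were no further apart than spot noise allows (ratio of between-probe to spot variance 1.06), unlike siRNA-NC arrays 1 and 2 (183.6). Arrays 1 and 3 of each group therefore entered as their mean, so each group holds 2 samples. Between arrays 1 and 2, which belong to separate samples of their group, the SD over probes of the difference was 0.13 (log2) with siRNA-MEG3 and 0.56 with siRNA-NC. The siRNA-MEG3 samples may thus be technical replicates, and a p-value here reflects the spread among these samples, which may be technical. All siRNA-NC arrays came from 1 scan and the siRNA-MEG3 arrays from 2 others, so scan and group cannot be told apart. Processed signal at the 75th percentile was 1237 to 1334 on siRNA-MEG3 arrays and 1232 to 2279 on siRNA-NC arrays, and 62.8 to 69.3% and 70.1 to 75.2% of their spots were well above background. The siRNA-MEG3 arrays also had dark patches, defined as blocks of 30 by 17 spots with more than 5% of spots over 4-fold dimmer than with siRNA-NC. They covered 33.7, 5.87 and 22.8% of siRNA-MEG3 arrays 1, 2 and 3 and 0% of the siRNA-NC arrays. Of the 12 member spots, 8 lay in such a patch on siRNA-MEG3 array 1 and 0 on siRNA-MEG3 array 2.

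Meg3 itself was too dim for the knockdown to be checked. Of its 3 probes, 1 was well above background on 1 array, siRNA-NC array 2. Unscaled, the processed signal of that probe read 5.57, 10.8 and 5.47 on siRNA-MEG3 arrays 1, 2 and 3, against 11.6, 25.5 and 9.38 on siRNA-NC arrays 1, 2 and 3. The other probes, well above background on 0 arrays, did not share a direction with it. In the same order, one of them read 13.6, 2.97 and 11.7 against 3.17, 3.54 and 4.92. The last read 4.53, 11.4 and 4.45 against 14.1, 3.72 and 3.17. Of the markers set for the line, Myod1, Myf5, Des, Cdh15, Itga7 and Vcam1 were well above background on all 6 arrays, and Pax7 on siRNA-MEG3 array 2 and all 3 siRNA-NC arrays.

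Transcripts of Lmod3 and Klhl41 were 15.5- and 10.7-fold higher with siRNA-MEG3, and those of Lmod2 and Hspb3 at least 3.59- and 3.08-fold higher by processed signal. The abundant small heat shock transcripts of Cryab, Hspb2 and Hspb8 had fitted log2 fold changes of 0.21 to 0.54 and did not pass the test. By limma over all probes, 4 of the 12 member probes rose (Lmod3, Klhl41, Lmod2 and Hspb3), 0 fell and 8 did not pass, where 1.22% of the 26345 probes tested passed, 0.869% higher and 0.349% lower. The groups' arrays did not overlap for 9 member probes that were higher, against 24.8% of all probes tested, and for 1 that was lower, against 22.5%. At an unadjusted limma p under 0.05, 6 member probes were higher and 1 lower, where 18.4% of all probes tested had such a p, 9.54% higher and 8.83% lower. The median log2 fold change of the 12 probes was 1.06, against -0.03 over all probes tested. All 12 passed the filter on dim probes, 8 of them through both groups, and Lmod3 was the 1 call among those 8. Klhl41, Lmod2 and Hspb3 passed it through the siRNA-MEG3 arrays alone and Smyd1 probe 2 through the siRNA-NC arrays alone. Such entry through 1 group favours probes that differ, so no count over the 12 is support for a difference. In RNA from a whole culture, more cells of a type and more RNA per cell cannot be told apart.

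**Figure D1:**
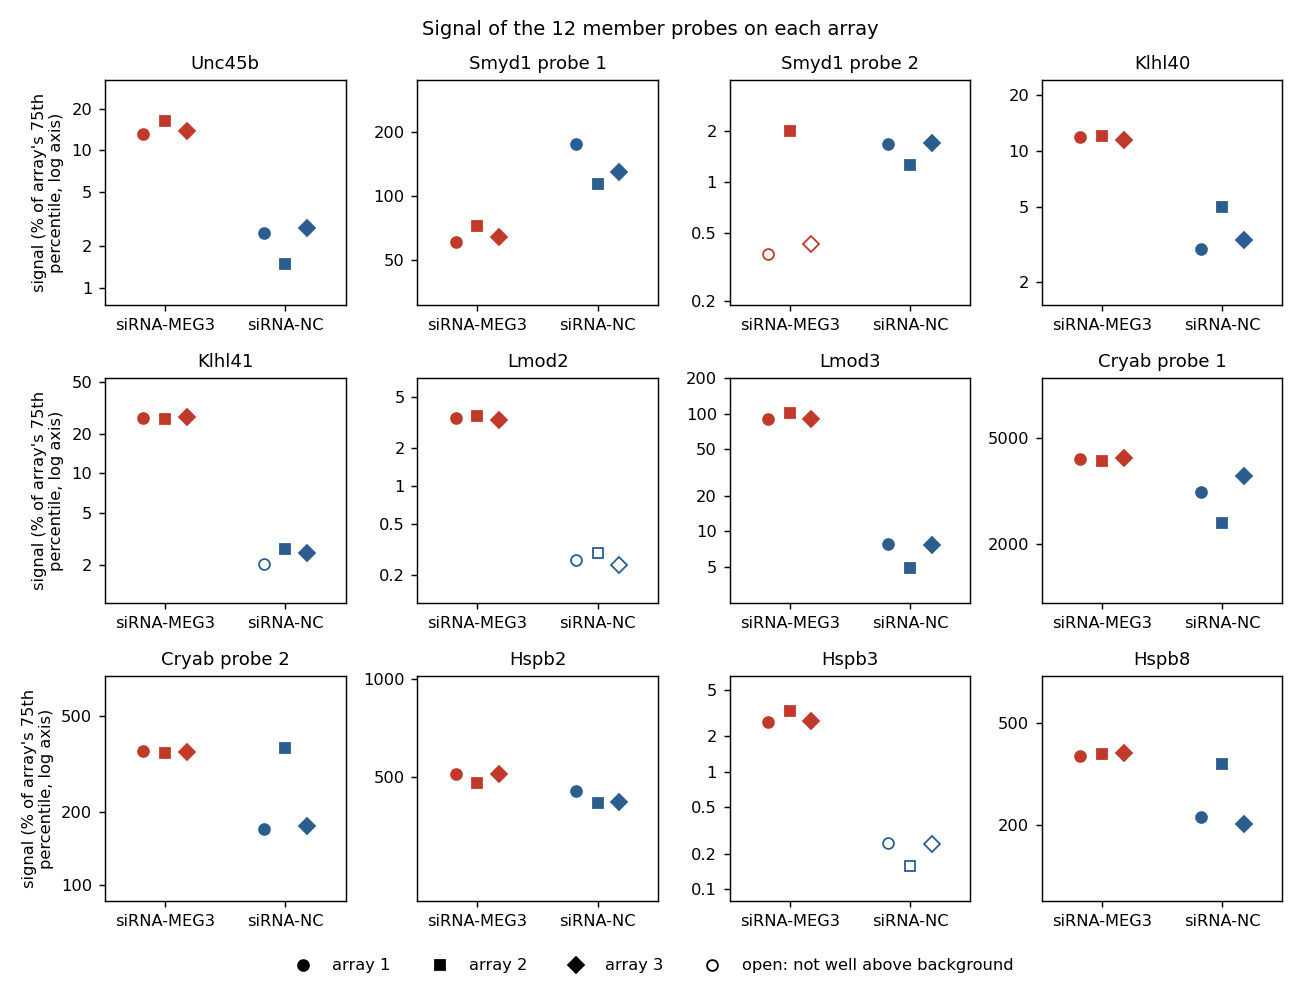
Signal of each member probe on each array, as a percentage of that array's 75th percentile (log axis), with siRNA-MEG3 arrays left of siRNA-NC arrays and open symbols for spots not well above background. The 3 siRNA-MEG3 arrays lie above the 3 siRNA-NC arrays for Unc45b, Klhl40, Klhl41, Lmod2, Lmod3 and Hspb3, and narrowly so for Cryab probe 1, Hspb2 and Hspb8. They lie below them for Smyd1 probe 1, and the groups overlap for Cryab probe 2 and Smyd1 probe 2.

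Leiomodins nucleate actin and lengthen thin filaments, and both members rose. Lmod3 (NM_001081157), a skeletal muscle leiomodin, read 90.1, 101.2 and 90.4% of the array's 75th percentile on siRNA-MEG3 arrays 1, 2 and 3, against 7.88, 4.89 and 7.73% on siRNA-NC arrays 1, 2 and 3. All 6 spots were well above background, the groups did not overlap, and siRNA-NC array 2 was the lowest. The log2 fold change was 3.95 ± 0.31 (SE, n = 2 samples per group), a 15.5-fold difference (limma adjusted p = 0.0295). Lmod2 (NM_053098), the leiomodin best known from heart, was near the detection limit, at 3.46, 3.56 and 3.28% on siRNA-MEG3 arrays 1, 2 and 3, against 0.258, 0.298 and 0.237% on siRNA-NC arrays 1, 2 and 3. It was well above background on all siRNA-MEG3 arrays and on no siRNA-NC array, so its difference has a lower bound. By processed signal it was at least 3.59-fold higher. That bound sets the siRNA-MEG3 mean against the higher, on each siRNA-NC array, of the probe's own signal and the lowest signal well above background. The limma adjusted p of 0.0251 comes from the fit to the measured signals, and the bound itself was not tested. The Lmod2 spot lay in a dark patch on siRNA-MEG3 arrays 1 and 3 and outside one on array 2, where it read 3.56%.

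The Kelch adaptors stabilise nebulin and leiomodin in the thin filament, and 1 of the 2 passed. Klhl41 (NM_001081087) read 26.7, 25.8 and 26.8% of the 75th percentile on siRNA-MEG3 arrays 1, 2 and 3, against 2.04, 2.67 and 2.47% on siRNA-NC arrays 1, 2 and 3. The siRNA-MEG3 arrays agreed closely with each other and lay clear of every siRNA-NC array, of which 2 of 3 were well above background (not array 1). In processed signal the Klhl41 spots on siRNA-NC arrays 1, 2 and 3 were dim, at 26.3, 60.9 and 30.4 units. Those on arrays 1 and 3 were under 50 units, where spot noise was largest (values given with Unc45b). The log2 fold change of Klhl41 was 3.42 ± 0.22, a 10.7-fold difference (SE, n = 2 samples per group, limma adjusted p = 0.0259), and no spot of this probe lay in a dark patch. Klhl40 (NM_028202), which binds nebulin and Lmod3 in mouse muscle, read 11.9, 12.1 and 11.5% on siRNA-MEG3 arrays 1, 2 and 3, against 2.98, 5.02 and 3.32% on siRNA-NC arrays 1, 2 and 3. All spots were well above background and the groups did not overlap, with siRNA-NC array 2 the highest of its group. The log2 fold change was 1.58 ± 0.30 (95% interval 0.75 to 2.41) and did not pass over all probes (limma adjusted p = 0.122).

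Of the myosin chaperone pair, Unc45b and Smyd1 had fold changes of opposite sign and neither passed. Unc45b (NM_178680), the muscle form of the UCS-domain co-chaperone that delivers myosin heads to Hsp90, read 13.2, 16.4 and 13.9% on siRNA-MEG3 arrays 1, 2 and 3, against 2.499, 1.48 and 2.72% on siRNA-NC arrays 1, 2 and 3. The groups were far apart and all 6 spots were well above background. Its log2 fold change of 2.92 ± 0.35 (95% interval 1.95 to 3.89, n = 2 samples per group) did not pass (limma adjusted p = 0.0576). It passed in 8 of 22 other settings, most of which counted near-identical arrays as separate samples or left a lone siRNA-MEG3 sample. Those that kept 2 samples per group were a filter to probes well above background on all 6 arrays (limma adjusted p = 0.0391) and quantile normalization (limma adjusted p = 0.0442). Its spots on siRNA-NC arrays were dim in processed signal, at 32.2, 33.8 and 33.5 units, and probes printed 10 times had a median spot-to-spot SD of 0.46 on the log2 scale under 50 units, against 0.14 from 50 to 500 units and 0.08 above 500.

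Smyd1 (NM_009762), a muscle lysine methyltransferase of the SET and MYND family, was measured by a bright and a dim probe. The bright probe read 61.0, 72.6 and 64.0% on siRNA-MEG3 arrays 1, 2 and 3, against 177.4, 114.0 and 130.4% on siRNA-NC arrays 1, 2 and 3. Every siRNA-MEG3 array was below every siRNA-NC array, and the log2 fold change was -0.97 ± 0.25 (95% interval -1.66 to -0.27), which did not pass (limma adjusted p = 0.180). The dim probe read 0.374, 1.998 and 0.429% on siRNA-MEG3 arrays 1, 2 and 3, against 1.67, 1.27 and 1.69% on siRNA-NC arrays 1, 2 and 3. With siRNA-MEG3 it was well above background on array 2 alone, where it was the highest of all 6, so the groups overlapped (log2 fold change -0.70 ± 0.83, limma adjusted p = 0.717). Both Smyd1 spots lay in a dark patch on siRNA-MEG3 arrays 1 and 3. Without the spots in patches siRNA-MEG3 array 2 alone is left, at a log2 difference from the siRNA-NC mean of -0.86 for the bright probe and 0.46 for the dim one, so the dim probe has no settled direction.

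Among the small heat shock genes, Hspb3 rose and the other 3 did not pass. Hspb3 (NM_019960), which forms complexes with Hspb2 in muscle, read 2.64, 3.29 and 2.71% on siRNA-MEG3 arrays 1, 2 and 3, against 0.247, 0.158 and 0.245% on siRNA-NC arrays 1, 2 and 3. The limma adjusted p of 0.0300 comes from the fit to the measured signals. Hspb3 was well above background on all siRNA-MEG3 arrays and on no siRNA-NC array. By processed signal it was thus at least 3.08-fold higher, a bound that was not itself tested. Its spot lay in a dark patch on siRNA-MEG3 array 1, and array 2, outside any patch, gave the highest value of the group. In processed signal it stayed dim even where detected, at 34.5, 43.9 and 33.5 units on siRNA-MEG3 arrays 1, 2 and 3.

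Cryab, Hspb2 and Hspb8 were bright in both groups. Cryab (NM_009964), αB-crystallin, which chaperones desmin filaments, read 4160, 4102 and 4183% on siRNA-MEG3 arrays 1, 2 and 3, against 3143, 2409 and 3604% on siRNA-NC arrays 1, 2 and 3 by probe 1. The groups did not overlap, but the log2 fold change of 0.54 ± 0.26 (95% interval -0.16 to 1.24) did not pass (limma adjusted p = 0.368). Probe 2 read 358.8, 350.7 and 355.9% on siRNA-MEG3 arrays, against 171.0, 368.1 and 176.2% on siRNA-NC arrays. There siRNA-NC array 2 was above all siRNA-MEG3 arrays and the other siRNA-NC arrays far below them, and the log2 fold change was 0.49 ± 0.42 (95% interval -0.66 to 1.63, limma adjusted p = 0.610).

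Hspb2 (NM_024441), also called myotonic dystrophy kinase binding protein, read 511.0, 482.1 and 510.7% on siRNA-MEG3 arrays 1, 2 and 3, against 454.7, 418.4 and 420.6% on siRNA-NC arrays 1, 2 and 3. The groups were close without overlapping, at a log2 fold change of 0.21 ± 0.20 (95% interval -0.33 to 0.76, limma adjusted p = 0.638). Hspb2 and Cryab overlap on chromosome 9 in the GRCm38.p6 annotation. Hspb8 (NM_030704), which works with Bag3 in the removal of damaged filament proteins, read 370.6, 376.6 and 381.9% on siRNA-MEG3 arrays 1, 2 and 3, against 214.9, 344.0 and 200.3% on siRNA-NC arrays 1, 2 and 3. Here too siRNA-NC array 2 lay near the siRNA-MEG3 arrays, and the log2 fold change was 0.49 ± 0.32 (95% interval -0.37 to 1.36, limma adjusted p = 0.494). Without siRNA-NC array 2, which leaves a lone siRNA-NC sample, the log2 fold change was 0.30 for Cryab probe 1, 1.03 for Cryab probe 2 and 0.86 for Hspb8. For these 4 probes a p that missed the threshold does not show equal levels; the intervals reach from a log2 fold change of -0.66 to 1.63.

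**Figure D2:**
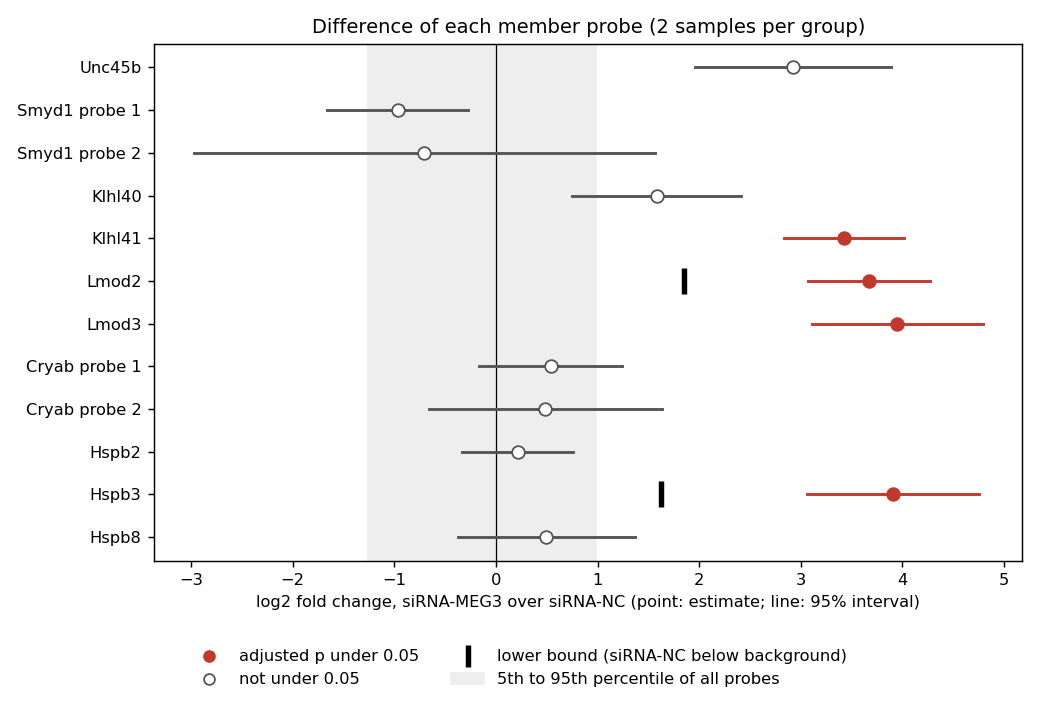
Log2 fold change of each member probe, siRNA-MEG3 over siRNA-NC, with its 95% interval from 2 samples per group; filled points have a limma adjusted p under 0.05, black bars are the lower bounds of Lmod2 and Hspb3, and the grey band holds the 5th to 95th percentile of all probes tested. Klhl41, Lmod2, Lmod3 and Hspb3 lie between 3.42 and 3.95, Unc45b at 2.92 with an open point, and both Smyd1 probes left of 0.

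By role, with Lmod2 and Hspb3 at their lower bounds, the medians of the probes' log2 fold changes were 2.90 for the 2 leiomodin probes, 2.503 for the 2 Kelch probes and 0.49 for the 5 small heat shock probes (0.21 to 1.62). The 3 probes of the myosin chaperones differ in sign and are given above one by one.

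The 4 calls rest on few samples, and some settings end them. Without siRNA-NC array 2, which leaves a lone siRNA-NC sample assumed to vary like the siRNA-MEG3 ones, 0 of the 12 member probes passed by limma (each called member then had an adjusted p of 0.115, with fitted log2 fold changes from 3.55 to 3.81; 8934 of all probes had an unadjusted p under 0.05). With no filter on dim probes the adjusted p of the 4 called members was 0.0721 to 0.0752. Another fit used normexp background correction in place of the processed signal. It adds an offset of 50 units to every spot, which by construction shrinks the fold changes of dim probes. With the spots under a bright speck on siRNA-MEG3 array 2 left out, Lmod3 kept a log2 fold change of 3.32 (limma adjusted p = 0.0264). Klhl41 stood at 2.05, Lmod2 at 1.15 and Hspb3 at 1.14 (adjusted p = 0.0506, 0.197 and 0.195). The last 2 values are below the bounds given above, which refer to the processed signal without an offset. The share of the offset in these values was not tested. In a fit to the authors' deposited log2 table, Lmod3 and Klhl41 stood at 3.69 and 3.27 and did not pass (adjusted p = 0.0530 and 0.0515). With spots in dark patches left out, 8 of the 12 member probes rest on siRNA-MEG3 array 2 alone, Lmod2 and Hspb3 among them; Klhl41 and Lmod3 had no spot in a patch.

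**Figure D3:**
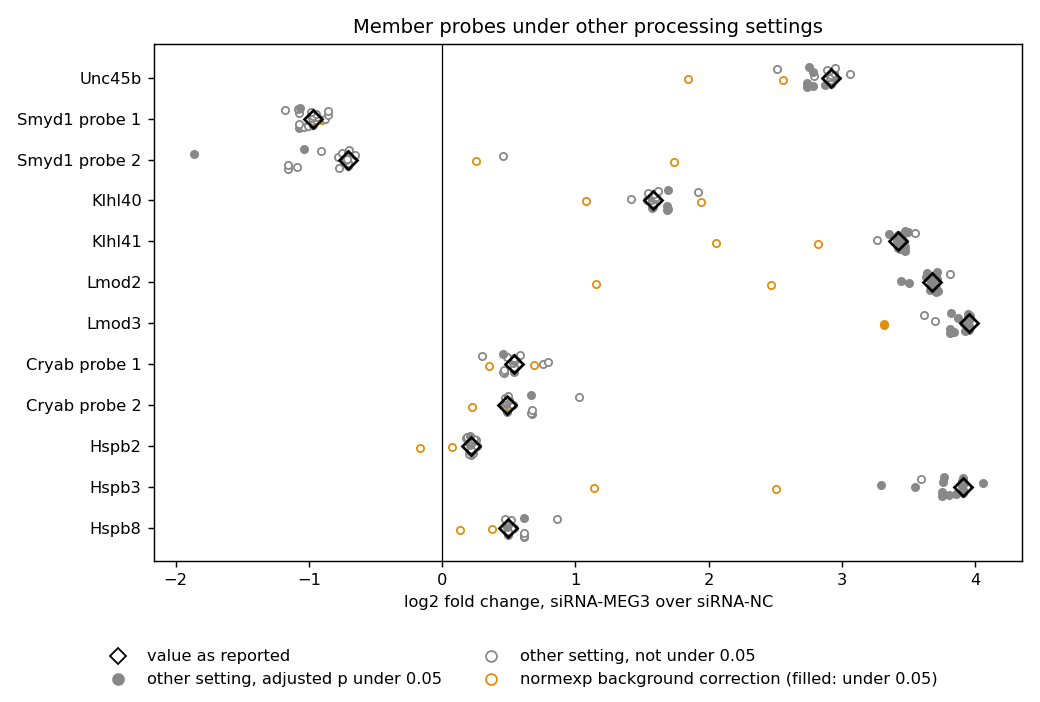
Log2 fold change of each member probe, siRNA-MEG3 over siRNA-NC, as reported (diamond) and under each other setting (circles, filled where the limma adjusted p was under 0.05; orange for the normexp fits). Lmod3 stays between 3.31 and 3.96 and Klhl41 between 2.05 and 3.55, Lmod2 and Hspb3 lie as low as 1.15 and 1.14 under normexp, and Smyd1 probe 2 lies on both sides of 0.

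Markers of differentiated muscle differed between the groups as well. The summed signal of Myog, Mymk, Mymx, Myh3, Ckm and Acta1 was 2884 to 2955% of the 75th percentile on siRNA-MEG3 arrays and 698 to 851% on siRNA-NC arrays. By limma over all probes 3 of the 6 rose, where 0.869% of all probes tested did. The 7 myoblast markers summed to 4200 to 4408% on siRNA-MEG3 arrays and 2929 to 3353% on siRNA-NC arrays. By limma over all probes 0 of 7 passed (unadjusted p under 0.05 for 3 higher and 1 lower, against 9.54% and 8.83% of all probes). Among them, and named after their values were seen, Myf5 read 3.22 to 3.28% on siRNA-MEG3 arrays and 17.3 to 36.4% on siRNA-NC arrays (log2 fold change -2.94 ± 0.41, limma adjusted p = 0.0740). Myod1 read 62.0 to 63.1% on siRNA-MEG3 arrays and 9.09 to 19.8% on siRNA-NC arrays (2.21 ± 0.43, limma adjusted p = 0.123). Markers of other cells a culture could hold were measured by 6 probes. Pecam1, Krt5 and Sox10 were well above background on all 6 arrays, and Ptprc on 1 siRNA-MEG3 array and all 3 siRNA-NC arrays. Adipoq was well above background on 3 of 6 arrays, all siRNA-NC, and Epcam on 0 of 6. The summed signal of the 6 probes was 36.6 to 75.5% on siRNA-MEG3 arrays and 32.0 to 45.4% on siRNA-NC arrays. Pecam1 alone read 42.2, 8.14 and 43.1% on siRNA-MEG3 arrays 1, 2 and 3 and 13.7 to 19.7% on siRNA-NC arrays. Of the 5 that passed the filter, 0 passed limma over all probes (unadjusted p under 0.05 for 1 higher and 1 lower, against 9.54% and 8.83% of all probes). The part of any of these marker lists in the members' differences was not tested.

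Among transcripts of the proteins that the members fold, place or hold, several rose as well. Of 19 client and partner genes in the sarcomere, all of which passed the filter, 8 rose, 0 fell and 11 did not pass, where 0.869% of all probes tested rose and 0.349% fell. Their median log2 fold change was 1.77 (unadjusted p under 0.05 for 12 higher and 0 lower, by limma, against 9.54% and 8.83% of all probes). Myh8 and Xirp2 passed the filter through the siRNA-MEG3 arrays alone and Actc1 through the siRNA-NC arrays alone. The cardiac actin gene Actc1, expressed in developing skeletal muscle, rose by 7.09 ± 0.57 on the log2 scale (limma adjusted p = 0.0300); its spot on siRNA-MEG3 array 1 was marked as an outlier and left out, so that sample rests on array 3. Embryonic myosin Myh3 rose by 6.97 ± 0.54 (adjusted p = 0.0294) and perinatal myosin Myh8 by 5.02 ± 0.24 (adjusted p = 0.0210), Myh8 being well above background on 2 of the siRNA-NC arrays. The giant spring protein gene Ttn rose by 4.44 ± 0.36 (adjusted p = 0.0300), and its second probe gave 5.08. Named outside the rule, after its values were seen, Neb, the thin filament ruler that Klhl40 binds, rose by 4.36 ± 0.28 on its brightest probe (adjusted p = 0.0259), but its second probe gave -0.33.

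Close relatives of the members did not pass. Of 15 paralogs and family members, 12 could be tested. By limma on the brightest probe of each gene 0 rose and 0 fell (unadjusted p under 0.05 for 3 higher and 1 lower, against 9.54% and 8.83% of all probes). Their median log2 fold change was 0.06, or 0.07 with Lmod1 at its bound. Tmod1, a tropomodulin that caps the pointed end where leiomodins act, came nearest, at 5.01, 5.44 and 5.35% on siRNA-MEG3 arrays 1, 2 and 3, against 0.528, 1.102 and 1.01% on siRNA-NC arrays 1, 2 and 3 (log2 fold change 2.57 ± 0.29, limma adjusted p = 0.0513). Tmod4, its skeletal muscle relative, stood at 0.48 ± 0.24. The Kelch relatives that could be tested are named outside the rule, after their values were seen. Klhl30 stood at 1.57 ± 0.20, Klhl31 at 1.35 ± 0.22 and Klhl38 at 0.15 ± 0.49 (limma adjusted p = 0.0645, 0.0957 and 0.904). A second probe of Klhl31 gave 1.43. Smyd3, also named outside the rule, stood at -0.26 ± 0.21 on its brightest probe and at -1.71 and -1.21 on its other tested probes. Lmod1, the leiomodin of smooth muscle, had 0 of 3 siRNA-MEG3 spots and 3 of 3 siRNA-NC spots well above background. By processed signal it was at least 1.01-fold lower with siRNA-MEG3. The fit to its measured signals did not pass (limma adjusted p = 0.230). Unc45a, the form of Unc45 found in all cells, stood at -0.08 ± 0.34, with 235, 252 and 237% on siRNA-MEG3 arrays and 339, 194 and 342% on siRNA-NC arrays.

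Other small heat shock genes did not pass either. Of 6 genes 5 could be tested. By limma on the brightest probe of each gene 0 rose and 0 fell (0 also with unadjusted p under 0.05, against 9.54% and 8.83% of all probes higher and lower), and the median log2 fold change was 0.40. Hspb7, a heart and muscle small heat shock gene, had the smallest p and stood at -0.90 ± 0.36 (limma adjusted p = 0.297), with 1 of 3 siRNA-MEG3 arrays well above background. Hspb1, the widely expressed member of the family, stood at 0.48 ± 0.26, and Hspb6, abundant in muscle, at 0.29 ± 0.42. Cryaa, named outside the rule, stood at 0.40 ± 0.69 on its brightest probe and at -1.50 on its other tested probe.

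The general folding machinery had no gene that passed. Of 26 genes for Hsp90, Hsp70, their co-chaperones and heat shock factors, 24 could be tested. By limma 0 rose and 0 fell (unadjusted p under 0.05 for 0 higher and 1 lower, against 9.54% and 8.83% of all probes). By the brightest probe of each gene log2 fold changes ran from -0.82 to 0.73 with a median of -0.07. Other probes went further, to -2.22 for one of Hspe1, a mitochondrial co-chaperonin, and 1.05 for one of Ptges3, an Hsp90 co-chaperone. The inducible Hsp70 gene Hspa1a had the smallest p, at -0.82 ± 0.29 (limma adjusted p = 0.261). Of 5 genes of the Cullin-3 ligase and its partners, all tested, 0 rose and 0 fell by limma (0 also with unadjusted p under 0.05), with a median of -0.04; Nedd8, the ubiquitin-like protein that activates cullins, had the smallest p at -0.31 ± 0.20 (adjusted p = 0.495). Differences between these lists and the members were not tested.

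**Figure D4:**
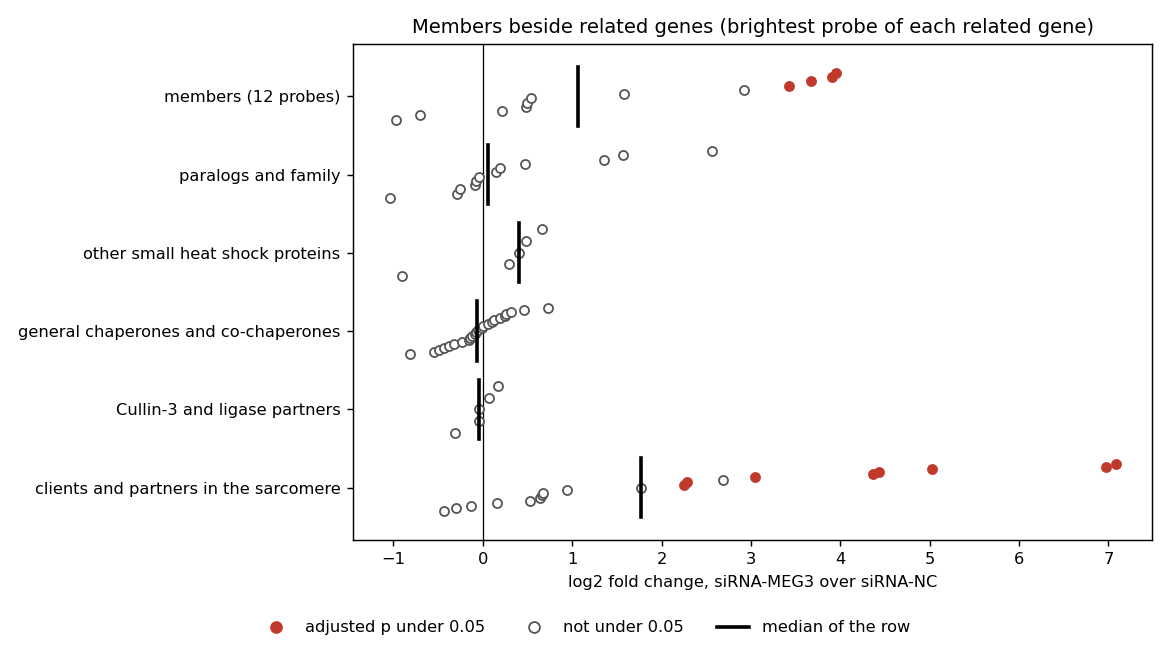
Log2 fold changes, siRNA-MEG3 over siRNA-NC, of the 12 member probes and of the brightest tested probe of each related gene, by list; filled points have a limma adjusted p under 0.05 and black bars are medians, with all genes at their fitted values. The medians are 1.06 for the members, 0.06 for paralogs and family, 0.40 for other small heat shock genes, -0.07 for general chaperones, -0.04 for Cullin-3 partners and 1.77 for clients in the sarcomere.

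The median deviation of the member probes from the siRNA-NC mean was 1.06, 1.07 and 1.05 on siRNA-MEG3 arrays 1, 2 and 3, against 0.12, -0.12 and -0.00106 on siRNA-NC arrays 1, 2 and 3, in log2 units. Among 16877 probes that were named, well above background on every array and not members, those nearest to this profile belonged to Csrnp1, Dbp, Ifitm6, Pced1b and Pdss1, with root mean square differences of 0.04 to 0.06 over the 6 arrays. The 6 arrays share the scans and the near-identical pairs described above, so this is a description of likeness over 4 samples.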

How the data were processed

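RNA from 3 siRNA-MEG3 and 3 siRNA-NC arrays was analysed. Each deposited scanner file gives, per the file headers, Agilent Feature Extraction 11.0.1.1 values for every spot: the processed signal intensity (background removed and spatial trend corrected on that array), median pixel and local background intensities, and quality marks. The deposited log2 table of the series holds the authors' values scaled between arrays; per the labels, they averaged repeated probes and took a factor from intensities of at least 30 in all samples. Its columns had medians of 8.11 and followed the log2 processed signal (r of 0.9992 to 0.9997); the exact step between arrays is not known, and the table served as an alternative.

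Controls and outlier-marked spots (non-uniform or population) were dropped and repeat spots averaged. log2 processed signal minus the array's own 75th percentile entered the fit. A level in the text is the signal as a percentage of that percentile. RefSeq accessions were matched to symbols in a GRCm38.p6 gene table; the array design used an older build, so no coordinates of probes are given. Promoter sequences are from RefSeq, GRCm38.p6. Tested probes had values in all 4 samples and, in 1 group or both, every array well above background. Fits used R 4.3.3 and limma 3.58.1 (lmFit, then eBayes; 2-sided; a group term alone), which gave fold changes on 2 residual and 2.21 prior degrees of freedom, with Benjamini-Hochberg adjustment over all 26345 probes and a threshold of 0.05. The fit was checked on simulated data. For related genes, the brightest tested probe stood for the gene.

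The members, lists and the averaging of arrays were chosen with earlier results of these data known. Named genes are all members, the paralogs listed, in each list up to 4 passing genes with the largest change or else the one with the smallest p, the 5 nearest in profile, and Meg3. Alternatives varied how arrays were counted, filters, background correction, scaling, probe choice and left-out arrays. No spot was saturated, and the number of arrays limits the precision.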

Additional observations from a re-analysis of the deposited data

How the results depend on the processing

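As reported, 229 probes were higher and 92 lower, 4 member probes were higher and 0 lower, and the member median was 1.06 (log2). Over 22 alternatives, 1 chosen after seeing the data, the 12 member probes gave 216 values on their side of the threshold and with their direction, 21 that newly passed, 17 that no longer passed and 4 reversals; the cause of changes was not tested except where stated. Counting arrays otherwise gave 3572 higher and 3113 lower as 6 samples, with 1 member lower and a member median of 1.18; 1076, 1066 and 1.18 as 5 samples; 503 and 888 as 3 samples. Near-identical arrays shrink the spread by construction in the fits with 6 and 5 samples. The replicate number as a block gave 181 higher, 83 lower, 4 members and 1.06 in the 4-sample fit, and 1603, 1529 and 1.18 with 6 arrays; same-numbered arrays deviated with r of -0.03 to -0.04, so they share only a number. Scan as a random block over 6 arrays, the added alternative, gave 7617 higher, 8267 lower, 10 members higher, 2 lower and 1.18, at a consensus correlation of -0.47. No filter gave 0 higher, 0 lower and 0 members by limma (unadjusted p under 0.05 for 5212), and requiring all 6 arrays gave 2 members and 0.52, since Klhl41, Lmod2, Hspb3 and Smyd1 probe 2 are then not tested. Normexp with an offset of 50 units gave 0 higher, 0 lower, 0 members and a member median of 1.84 (unadjusted p under 0.05 for 823 by limma), with the median of all probes at 0.55. Without the 18 speck spots it gave 108, 61, 1 member and 0.89. Smyd1 probe 2 reversed to 1.74 and 0.26 in these fits and to 0.46 without dark patches (siRNA-MEG3 array 2 alone is then left for this probe), which left 185 probes lower, and Hspb2 reversed to -0.17 with normexp. The authors' table gave 137 higher, 21 lower and 2 members, 86.7% of calls higher against 71.3% as reported. The brightest probe per gene gave a member median of 2.25. With each array left out in turn, counts ran from 0 to 1216 higher and 0 to 1970 lower, 0 to 6 members higher, 0 to 1 lower and medians of 1.03 to 1.47; the 1216 and 1970 came without siRNA-MEG3 array 2 (1 sample then remains), 49 lower without siRNA-NC array 1, and limma counts of 0 and 0 without siRNA-NC array 2 (unadjusted p under 0.05 for 8934). Signal over background limits Lmod2, Hspb3, Smyd1 probe 2 and the siRNA-NC levels of Klhl41 and Unc45b.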
